A study of Homo sapiens with 38 samples.

Results

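The genes that make, move and break down retinoic acid were followed through the conversion of human embryonic stem cells into neural progenitors: CYP26A1, CYP26B1, CYP26C1, ALDH1A1, ALDH1A2, ALDH1A3, RDH10, DHRS3 and STRA6. They were chosen by gene name and make up 9 of the 58219 genes in the deposited expression table. Of these, 8 reached a TPM of 1 (a transcript level scaled for gene length and library total) in at least 2 libraries and were tested, among 28221 genes in all. CYP26C1 did not, and its values are described without a test.

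The cells were the wild-type H9 line, an established human embryonic stem cell line, so every group comes from a single genetic background. Stem cells were sampled at day 0. Differentiating cells were sampled at days 4 and 8 under 9 conditions, which were IWP2 at 2 µM (an inhibitor of WNT secretion), no added agent (untreated, CT0.0), CT at 0.4, 0.8, 1.0, 2.0, 3.0 or 4.0 µM, and the highest CT dose with added retinoic acid (RA, 1.0 µM; CT4.0RA). The labels leave the abbreviation CT unexpanded, and the series' text describes it as a WNT activator used to set regional identity from forebrain to hindbrain. Each of the 19 groups had 2 libraries of poly(A) RNA, 38 in all. RA was given only on top of CT4.0, so the CT effect was read from the 7 doses without RA, and the RA effect from CT4.0RA against CT4.0 on the same day.

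Retinol enters some cells through STRA6, a membrane receptor for the retinol-binding protein. RDH10 oxidises retinol to retinaldehyde, DHRS3 reduces retinaldehyde back to retinol, and the aldehyde dehydrogenases ALDH1A1, ALDH1A2 and ALDH1A3 oxidise retinaldehyde irreversibly to RA. RA binds nuclear receptors (RAR and RXR) on DNA, and the cytochrome P450 enzymes CYP26A1, CYP26B1 and CYP26C1 hydroxylate it for removal. In the early embryo, ALDH1A2 in the paraxial mesoderm is a main source of RA and CYP26 enzymes in the anterior neural plate and hindbrain clear it, and CYP26A1 and DHRS3 are known as genes that RA itself induces.

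CYP26A1 lies at chr10:93073475-93077890 on the plus strand of hg38 (GENCODE release 29), and CYP26C1 at chr10:93060808-93069536 on the same strand, with 3938 bases between them. Both overlap AL358613.3, a processed transcript annotated on the same strand that was not analysed here. The stretch before the CYP26A1 start is shown because this gene carried the widest response to both agents. RefSeq's promoter windows (GRCh38.p14, 250 bases before to 50 after each start) held 16 windows for 8 of the members and none for RDH10. They were searched on both strands for 2 hexamers in direct repeat, each hexamer being AGGTCA or AGTTCA, or else one of the variants GGGTCA and GGTTCA, with a spacer of 5 bases (DR5, the classical arrangement bound by RAR and RXR) or of 2 bases (DR2). They were also searched for the letters CTTTGAA or CTTTGAT, which TCF factors of the WNT pathway can bind. A DR5 was found in 1 of the 2 CYP26A1 windows and in no other member's window. Over all genes, 31 of 35116 windows held a DR5 (0.0883%). The repeat spans the bases from 90 to 74 before the RefSeq start at position 93073893, in the first, untranslated exon of the longer annotated transcript, and the capitals below mark its 2 hexamers. In the second line, which shows 55 bases that end shortly before the RefSeq start, the capitals mark a TATAAA, a motif that 7.33% of all windows held on the gene's strand. Those bases lie in an intron of the longer transcript.
CYP26A1 DR5, chr10:93073797-93073825, minus strand: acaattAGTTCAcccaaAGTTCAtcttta
CYP26A1 core promoter, chr10:93073835-93073889, plus strand: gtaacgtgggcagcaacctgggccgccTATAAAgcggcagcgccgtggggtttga

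No member's window held a DR2 (0.0399% of all windows did) or the TCF letters (6.86% did), which says only that these letters are not in these windows. DHRS3, at chr1:12567910-12617731 on the minus strand, is the other member whose level rose with RA on both days. The 250 bases before 1 of its 3 RefSeq starts, at 12616789, are shown for comparison. They hold a single GGTTCA (capitals), and 38.6% of all windows held at least 1 of these hexamers. The window of another DHRS3 start, at 12596613, also held such a hexamer. The stretch shown is intronic in the longest annotated transcript of the gene.
DHRS3 upstream, chr1:12616790-12617039, minus strand: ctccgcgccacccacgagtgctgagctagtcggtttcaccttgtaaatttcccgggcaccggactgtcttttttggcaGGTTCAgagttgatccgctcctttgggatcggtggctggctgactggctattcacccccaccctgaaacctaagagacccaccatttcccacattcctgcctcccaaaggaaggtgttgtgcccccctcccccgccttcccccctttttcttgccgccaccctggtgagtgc

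Libraries of 1 group resembled each other closely, with a correlation of log2(TPM + 1) from 0.958 to 0.972, and 33 of the 38 libraries had their own replicate as best match. The share of TPM from ribosomal protein genes ranged over group means from 17.4% (day 8 IWP2) to 38.6% (day 8 CT4.0RA). The median log2 change of all genes lay away from 0 in several contrasts, at -0.18 for RA on CT4.0 at day 4 and at -0.27 for CT4.0 against untreated at day 8. Without ribosomal protein and mitochondrial genes these medians were -0.04 and -0.14. For RA on CT4.0 at day 8 the median was 0. TPM keeps no record of depth, so no counting interval can be given. Differences below are changes in log2(TPM + 1), a scale that shrinks the changes of genes near 0, and were tested with limma over all 38 libraries. A gene was called when its adjusted p was under 0.05 and its change was at least 1. The labels do not say whether the 2 libraries of a group came from separate differentiations, so p-values measure the spread between these libraries. The spread of a gene was pooled over all 19 groups.

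CYP26A1 was on in the stem cells, off in untreated progenitors, and on again in a window of intermediate CT doses. In the stem cells its level was 22.3 and 22.6 TPM. Untreated cells at day 4 had 0.683 and 0.562 TPM, a fall of 3.85 ± 0.33 (SE; limma adjusted p = 3.27e-09). At day 4 CT0.4 gave 1.44 and 2.45 TPM, CT0.8 gave 120.3 and 198.7 TPM, and the level was 259 and 314 TPM at CT1.0, and 143 and 117 TPM at CT2.0. At CT3.0 it was 0 and 0.113 TPM, and at CT4.0 0.0531 and 0.226 TPM. The groups on either side of both edges of the window were far apart, and all 4 libraries at CT3.0 and CT4.0 lay below both untreated libraries.

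Both edges were sharp steps. At day 4 CYP26A1 rose by 5.75 ± 0.33 from CT0.4 to CT0.8 (limma adjusted p = 2.22e-10) and fell by 6.95 ± 0.33 from CT2.0 to CT3.0 (1.06e-12). At day 8 the same doses formed the window at a lower level, with 34.2 and 27.2 TPM at CT0.8, 60.3 and 38.8 TPM at CT1.0 and 12.7 and 6.08 TPM at CT2.0. The outer doses at day 8 stayed between 0 and 0.446 TPM. The step into the window was then 4.59 (limma adjusted p = 1.02e-09) and the step out of it -3.07 (1.67e-07), after a first fall of 2.33 from CT1.0 to CT2.0 (8.27e-05). Between the days, the level fell by 2.30 at CT0.8, by 2.53 at CT1.0 and by 3.73 at CT2.0 (limma adjusted p = 2.84e-05, 8.69e-06 and 5.05e-08).

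Added RA brought CYP26A1 back at a CT dose that had left it near 0. CT4.0RA had 93.8 and 224.8 TPM at day 4 and 217 and 260.02 TPM at day 8, while CT4.0 had at most 0.411 TPM. The RA effect was +7.01 ± 0.33 at day 4 (limma adjusted p = 7.87e-13) and +7.50 ± 0.33 at day 8 (1.6e-13), with all libraries of one group above all of the other. The difference between the days was 0.49 ± 0.47 (limma adjusted p = 0.595). The 2 CT4.0RA libraries of day 4 differed more than 2-fold from each other. In the order of group means, day 4 CT1.0 came first (287 TPM) and day 8 CT4.0RA next (239 TPM), and their ranges overlapped. The levels at day 4 CT0.8, day 4 CT4.0RA and day 4 CT2.0 also overlapped, with means of 159.5, 159.3 and 129.95 TPM.

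**Figure D1:**
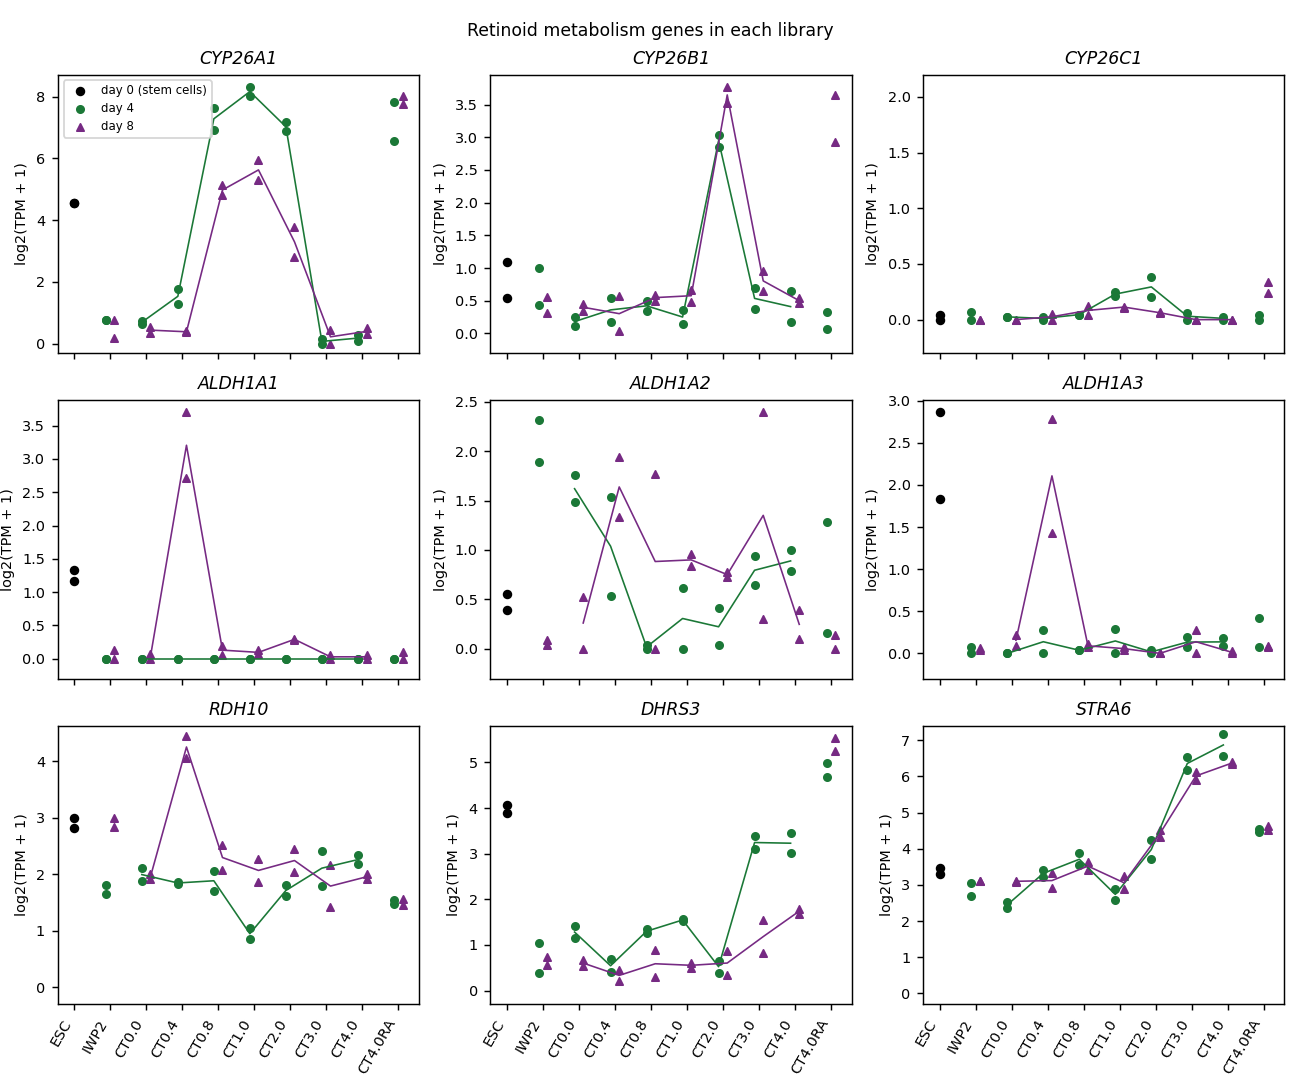
Level of each of the 9 genes in each library, as log2(TPM + 1) on the vertical axis, for stem cells (ESC, black), day 4 (green circles) and day 8 (purple triangles); each point is 1 library and lines join the means of the 7 CT doses. CYP26A1 is high from CT0.8 to CT2.0 and with RA, STRA6 is highest at CT3.0 and CT4.0 without RA, and ALDH1A1, ALDH1A3 and RDH10 have a day 8 peak at CT0.4.

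CYP26B1, which clears RA in the hindbrain and other tissues, was high in 3 groups. It lies at chr2:72129238-72148038 on the minus strand. At CT2.0 its level was 6.24 and 7.23 TPM at day 4 and 10.5 and 12.7 TPM at day 8, and in day 8 CT4.0RA it was 6.62 and 11.5 TPM. In the other 30 libraries of days 4 and 8 it ranged from 0.0216 to 1.01 TPM, with a median of 0.375 TPM. The 6 libraries of those 3 groups therefore lay above every other library of the 2 days.

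The CT2.0 peak of CYP26B1 was a single-dose peak on both days. Against untreated it was higher by 2.77 ± 0.26 at day 4 (limma adjusted p = 5.12e-08) and by 3.25 ± 0.26 at day 8 (3.68e-09). It fell again from CT2.0 to CT3.0 by 2.41 and 2.84 (limma adjusted p = 6.45e-07 and 1.43e-08). With RA the days differed: CYP26B1 was 0.255 and 0.0488 TPM in day 4 CT4.0RA against 0.57 and 0.125 TPM in CT4.0, a difference of -0.21 ± 0.26 (limma adjusted p = 0.692). At day 8 the RA effect was +2.79 ± 0.26 (2.49e-08), and the day 8 effect exceeded that of day 4 by 3.00 ± 0.37 (6.54e-06).

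CYP26C1, the family member next to CYP26A1, stayed under 1 TPM in all 38 libraries. Its highest values were 0.304 and 0.152 TPM at day 4 CT2.0, 0.262 and 0.183 TPM at day 8 CT4.0RA and 0.157 and 0.188 TPM at day 4 CT1.0, and 15 libraries were listed at 0. Its largest values thus stood in groups in which CYP26A1 was also high, at a level about which no test was made. Other groups with high CYP26A1 had little CYP26C1, with means of 0.0318 TPM at day 4 CT0.8 and 0.0136 TPM in day 4 CT4.0RA.

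Summed over the family, CYP26 transcripts at day 4 CT2.0 came to 149.7 and 124 TPM, of which CYP26A1 supplied 94.9% of the mean. At day 8 CT2.0 the sum was lower in both libraries, 23.2 and 18.8 TPM, and the levels of the 2 enzymes overlapped. CYP26A1 led in replicate 1 there (12.7 against 10.5 TPM) and CYP26B1 in replicate 2 (12.7 against 6.08 TPM). At CT3.0 and CT4.0 the sum stayed under 1 TPM in every library of both days.

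ALDH1A1, an RA-synthesising enzyme that marks the dorsal retina and midbrain dopamine progenitors, was present in the stem cells and in 1 progenitor group. It lies at chr9:72900662-73080442 on the minus strand. The stem cells had 1.52 and 1.25 TPM, all 18 libraries of day 4 were listed at 0, and day 8 CT0.4 had 5.56 and 11.99 TPM. The other 16 libraries of day 8 ranged from 0 to 0.232 TPM. At day 8 ALDH1A1 rose from untreated to CT0.4 by 3.17 ± 0.19 (limma adjusted p = 2.7e-11) and fell by 3.08 from CT0.4 to CT0.8 (9.44e-11). This SE comes from the spread within all 19 groups, most of which were at or near 0 for this gene. It is therefore smaller than the spread between the 2 CT0.4 libraries alone would give.

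ALDH1A3, the paralogue known from the ventral retina and forebrain (chr15:100877714-100916626, plus strand), followed the same pattern. Its level was 6.28 and 2.56 TPM in the stem cells and 1.69 and 5.90 TPM at day 8 CT0.4. Every other library of days 4 and 8 had at most 0.335 TPM. The rise at day 8 CT0.4 was 1.95 ± 0.30 (limma adjusted p = 4.6e-05), and the 2 libraries of that group differed more than 3-fold from each other. The pooled SE is smaller than the spread between these 2 libraries alone would give. In untreated day 4 cells ALDH1A1 and ALDH1A3 had fallen from their stem cell level by 1.25 ± 0.19 and 2.35 ± 0.30 (limma adjusted p = 1.37e-05 and 1.1e-06), and all 4 values were listed at 0.

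RDH10, the enzyme that supplies retinaldehyde, had its highest level in the same group. It was detected in every library, from 0.802 TPM up, and the stem cells had 6.98 and 6.01 TPM. Day 8 CT0.4 had 20.8 and 15.6 TPM, against 2.77 and 2.99 TPM in untreated cells, a rise of 2.29 ± 0.24 (limma adjusted p = 1.94e-07). Outside this group the 34 other libraries of days 4 and 8 ranged up to 7.003 TPM, with a median of 2.71 TPM. A low point stood at day 4 CT1.0, with 1.06 and 0.802 TPM, where RDH10 differed from untreated by -1.05 ± 0.24 (limma adjusted p = 0.00246). That call was lost under another scaling of the libraries (-0.86) and without day 4 untreated replicate 1 (-0.92) or day 4 CT1.0 replicate 2 (-0.95).

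RDH10 shares its locus with RPL7, an abundant ribosomal protein gene on the opposite strand, and the sources used here do not say whether the libraries kept strand. RPL7 had 2876 and 3068 TPM at day 8 CT0.4, and its group means ranged from 2842 to 5725 TPM. It is therefore not known whether reads of the 2 genes were told apart where they overlap, and whether their exons overlap was not examined.

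ALDH1A2, the main RA-synthesising enzyme of early paraxial mesoderm (chr15:57953424-58497866, minus strand), stayed low. Its level had a median of 0.4997 TPM over all 38 libraries and a highest value of 4.26 TPM. That value came from 1 library at day 8 CT3.0 whose replicate had 0.235 TPM. Libraries of day 4 without CT were somewhat higher, with 3.98 and 2.71 TPM under IWP2 and 1.80 and 2.37 TPM untreated, against 0 and 0.0281 TPM at CT0.8. The dose tests did not call it (limma F test, adjusted p = 0.169 at day 4 and 0.189 at day 8). With only the day 4 libraries in the fit, it was called lower than untreated at CT0.8 (-1.60), CT1.0 (-1.31) and CT2.0 (-1.40; limma adjusted p = 0.0286, 0.0354 and 0.0277). ALDH1A2 overlaps LIPC, a lipase gene on the opposite strand that reached 4.02 TPM. The change called for it was a fall of 2.03 ± 0.53 under IWP2 from day 4 to day 8 (limma adjusted p = 0.0084), which was lost without day 4 IWP2 replicate 1 (0.0722) or day 8 IWP2 replicate 2 (0.0513).

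**Figure D2:**
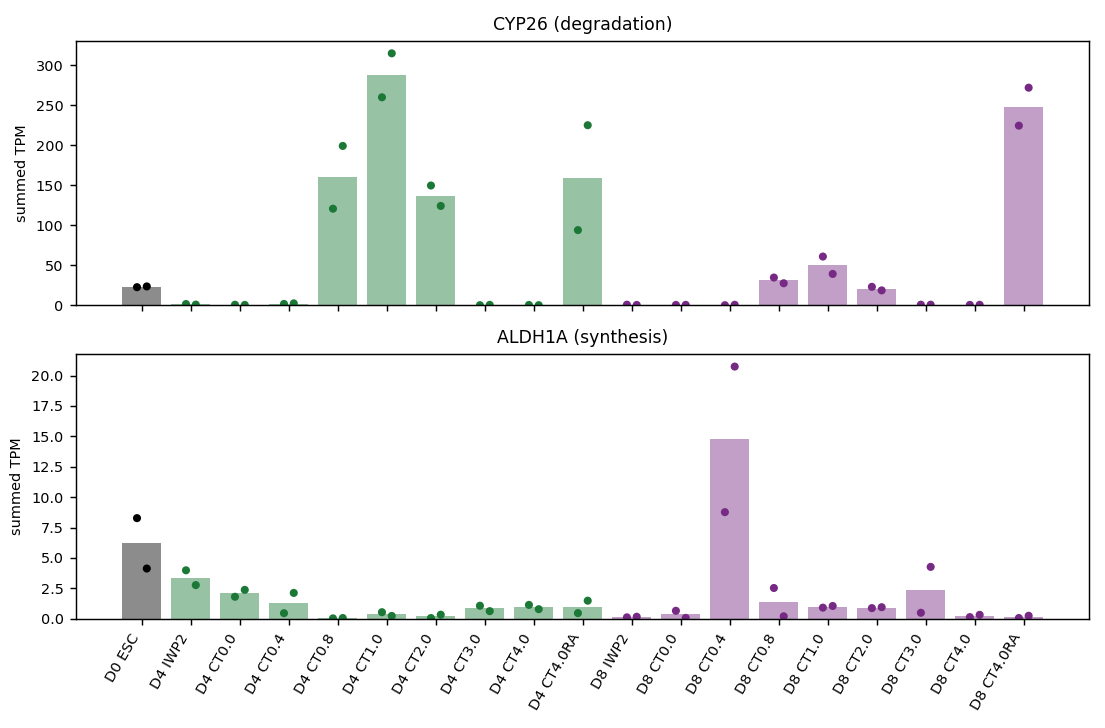
Summed TPM of the 3 CYP26 genes (top) and of the 3 ALDH1A genes (bottom) on the vertical axes for each group; bars are means of 2 libraries, points are single libraries, and colours mark day 0 (black), day 4 (green) and day 8 (purple). CYP26 sums are high from CT0.8 to CT2.0 and with RA, and the ALDH1A sum is highest at day 8 CT0.4, where the CYP26 sum is 0.318 and 0.847 TPM.

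The ALDH1A and CYP26 sums were high at different CT doses of day 8. At day 8 CT0.4 the ALDH1A sum was 8.76 and 20.7 TPM and the CYP26 sum 0.318 and 0.847 TPM. At day 8 CT0.8 the ALDH1A sum was 2.52 and 0.196 TPM and the CYP26 sum 34.8 and 27.7 TPM, and the CYP26 sum was highest at CT1.0 (61.0 and 39.3 TPM). Within 1 dose step, the synthesis genes ALDH1A1, ALDH1A3 and RDH10 fell (by 3.08, 2.02 and 1.95; limma adjusted p = 9.44e-11, 2.45e-05 and 2.05e-06) and CYP26A1 rose. In this step, 6.49% of all tested genes were called, and 4 of the 8 members were. Over the 19 group means, ALDH1A1 correlated with ALDH1A3 (Pearson r = 0.87) and with RDH10 (0.84), as a description resting largely on the stem cells and day 8 CT0.4.

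Markers of regions and other cell types differed between day 8 CT0.4 and untreated cells in both directions. The 5 rostral forebrain genes summed to 5.53 and 6.45 TPM at CT0.4 and 317 and 314 TPM untreated. The 5 neural crest genes summed to 19.9 and 17.8 TPM at CT0.4 and 205 and 197 TPM untreated. At CT0.4, 2 genes of each list had a mean of at least 1 TPM. Untreated cells had 5 of the forebrain and 3 of the neural crest genes at that level. WNT1, a signal of the dorsal midbrain and its caudal border, had 547 and 420.1 TPM at day 8 CT0.4 and 0.137 and 0 TPM in untreated cells. The 5 listed midbrain and isthmus genes summed to 962 and 825 TPM at CT0.4 and 289 and 256 TPM untreated. In each of these groups only 2 of the 5 had a mean of at least 1 TPM. Of the 5 genes listed for retinal pigment epithelium and choroid plexus, 4 had a mean of at least 1 TPM, with TTR at 41.0 and 13.4 TPM and TYRP1 at 2.83 and 4.32 TPM. In day 8 untreated cells TTR was listed at 0 and PMEL alone of that list passed 1 TPM. The summed level of that list was 156 and 177 TPM at CT0.4 and 278 and 183 TPM untreated, and PMEL supplied most of it. The forebrain sum was also low at day 4 CT0.4 (7.66 and 8.82 TPM) and day 8 CT0.8 (2.04 and 4.48 TPM). In these groups the midbrain and isthmus sums were 445 and 441 TPM and 257 and 243 TPM. ALDH1A1 was listed at 0 in the first group and had at most 0.145 TPM in the second. The part of the marker genes in the rise of ALDH1A1, ALDH1A3 and RDH10 was not tested. In bulk RNA a larger share of cells and more RNA per cell cannot be told apart.

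DHRS3, which turns retinaldehyde back to retinol, was higher at high CT doses and higher again with RA. The stem cells had 15.8 and 13.8 TPM and untreated day 4 cells 1.22 and 1.66 TPM, a fall of 2.70 ± 0.26 (limma adjusted p = 2.02e-08). At day 4 the level was 0.576 and 0.309 TPM at CT2.0, 9.51 and 7.53 TPM at CT3.0 and 9.88 and 7.07 TPM at CT4.0. CT3.0 and CT4.0 did not differ beyond their spread, and both were above all lower doses of the day. The step from CT2.0 to CT3.0 was +2.72 ± 0.26 (limma adjusted p = 1.02e-07). At day 8 the rise was smaller, with 0.761 and 1.92 TPM at CT3.0 and 2.22 and 2.46 TPM at CT4.0, and CT4.0 exceeded untreated by 1.14 ± 0.26 (limma adjusted p = 0.00128).

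With RA, DHRS3 reached 24.8 and 30.8 TPM at day 4 and 36.9 and 45.5 TPM at day 8. These 4 libraries had the highest values of all 38. The RA effect was +1.61 ± 0.26 at day 4 (limma adjusted p = 7.23e-05) and +3.65 ± 0.26 at day 8 (3.25e-10). The day 8 effect was larger by 2.04 ± 0.37 (4.78e-04). From day 4 to day 8 the CT4.0 level fell by 1.49 ± 0.26 (limma adjusted p = 1.77e-04), while the change in CT4.0RA was +0.55 ± 0.26 (0.161).

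STRA6, the retinol uptake receptor, increased with CT dose and was lowered by RA. It lies at chr15:74179466-74212267 on the minus strand. At day 4 its level was 4.15 and 4.79 TPM untreated, 12.2 and 17.8 TPM at CT2.0, 71.2 and 92.3 TPM at CT3.0 and 94.5 and 142 TPM at CT4.0. At day 8 it was 7.44 and 7.70 TPM untreated, 19.02 and 22.01 TPM at CT2.0, 59.3 and 68.3 TPM at CT3.0 and 80.9 and 82.6 TPM at CT4.0. The 8 libraries at CT3.0 and CT4.0 ranged from 59.3 to 142 TPM, above every other library of the series.

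The rise of STRA6 from untreated to CT4.0 was 4.42 ± 0.20 at day 4 (limma adjusted p = 1.4e-13) and 3.27 ± 0.20 at day 8 (1.32e-11). The largest single step was from CT2.0 to CT3.0, with +2.38 at day 4 and +1.59 at day 8 (limma adjusted p = 1.14e-08 and 1.4e-06). The rise was not even: CT0.8 had 13.7 and 10.6 TPM and CT1.0 6.40 and 5.003 TPM at day 4, and at day 8 CT0.8 had 9.60 and 11.4 TPM and CT1.0 6.33 and 8.48 TPM. CT4.0RA had 22.5 and 21.0 TPM at day 4 and 23.6 and 21.7 TPM at day 8, so the RA effect was -2.36 ± 0.20 (7.77e-09) and -1.81 ± 0.20 (2.89e-07). With RA the level still lay above all untreated libraries. The day difference of the RA effect was 0.56 ± 0.28 (limma adjusted p = 0.221).

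STRA6 overlaps CCDC33 on the opposite strand, and the levels of the 2 genes moved together (Pearson r = 0.94 over the 19 group means). CCDC33 had 1.22 and 1.13 TPM in day 4 untreated cells, 28.1 and 26.8 TPM at CT4.0 and 7.48 and 10.1 TPM in CT4.0RA. Without a stated strand, it is not known whether reads of one were told apart from reads of the other. Whether the exons of the 2 genes overlap was not examined.

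**Figure D3:**
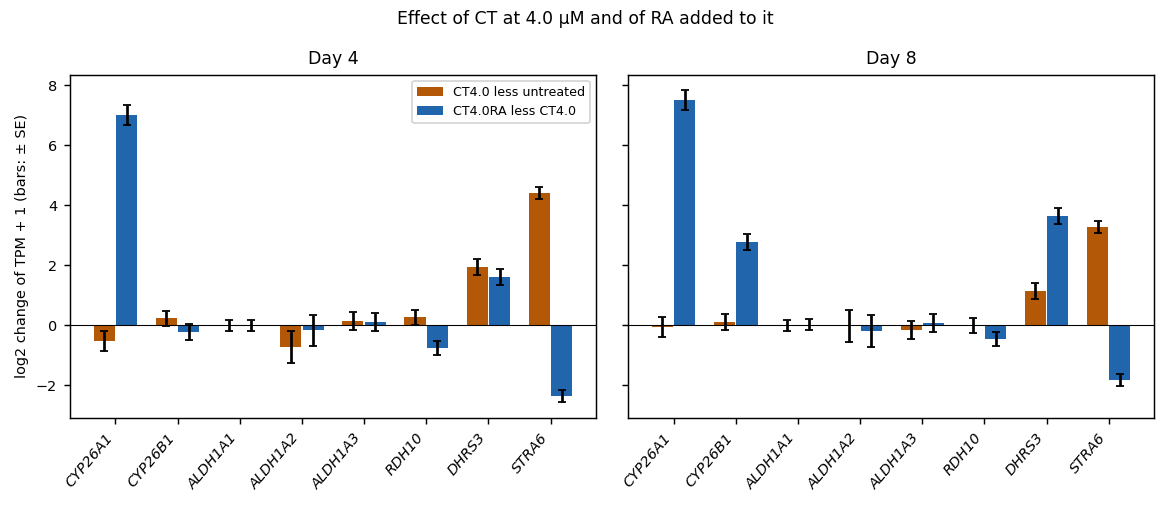
Log2 change of TPM + 1 (vertical axis) of the 8 tested genes for CT4.0 less untreated (orange) and for CT4.0RA less CT4.0 (blue) at day 4 (left) and day 8 (right); bars are limma estimates and error bars their SE. CYP26A1 has an RA bar of +7.01 and +7.50 beside CT bars of -0.51 and -0.04, DHRS3 has 2 positive bars, and STRA6 has CT and RA bars of opposite sign.

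Set side by side, the CT and RA effects at CT4.0 fell into separate patterns. CT4.0 against untreated called 2 of 8 members on each day, DHRS3 and STRA6, against 8.3% of all genes at day 4 and 15.8% at day 8. RA on CT4.0 called 3 members at day 4 (CYP26A1, DHRS3 and STRA6; 5.84% of all genes) and these and CYP26B1 at day 8 (8.87% of all genes). DHRS3 rose under both agents, and STRA6 rose with CT4.0 and fell with RA. CYP26A1 rose with RA and was not called for CT4.0 itself (-0.51 ± 0.33, limma adjusted p = 0.315, at day 4). With a pseudocount of 0.1 it was called lower at day 4 (-1.69, limma adjusted p = 0.0465). These comparisons share the CT4.0 libraries. The RA effect differed between the days for 2 members, CYP26B1 and DHRS3, against 7.13% of all genes.

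ALDH1A1, ALDH1A2 and ALDH1A3 were not called for either agent at CT4.0, and all 4 CT4.0RA libraries had at most 0.073 TPM of ALDH1A1 and 0.335 TPM of ALDH1A3. RDH10 was 4.03 and 3.54 TPM at day 4 CT4.0 and 1.76 and 1.90 TPM with RA, a difference of -0.76 ± 0.24 (limma adjusted p = 0.0257) that did not reach the size needed for a call. It passed with a pseudocount of 0.1 (-1.01, 0.0217).

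CT dose changed more members than its highest dose alone shows. Over the 7 doses without RA, the F test called CYP26A1, CYP26B1, RDH10, DHRS3 and STRA6 at day 4, 5 of 8 members against 14.9% of all genes. At day 8 it called 7 of 8, all but ALDH1A2, against 33.4% of all genes. The largest difference between dose means was 8.09 for CYP26A1 at day 4 (limma F test, adjusted p = 6.77e-16). The slope of a line fitted over dose was called higher for STRA6 (1.12 ± 0.04 per µM at day 4 and 0.94 ± 0.04 at day 8; limma adjusted p = 5.24e-16 and 7.1e-15) and DHRS3 (0.61 ± 0.05 and 0.30 ± 0.05; 2.88e-09 and 3.03e-05). A slope does not show that a line fits the levels: CYP26A1 had a negative slope on both days (-0.80 and -0.46) although its levels rose and then fell, and DHRS3 rose mainly in 1 step. In all, 3 members at day 4 and 4 at day 8 had a called slope, against 7.65% and 20.2% of all genes. Over the rank of the dose, where the slope is per dose step, the counts were 2 and 1, and at day 8 STRA6 alone was called.

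Dose by dose, the members called against untreated at day 4 were none at CT0.4 (2.23% of all genes), CYP26A1 and STRA6 at CT0.8 (2.68%), CYP26A1 and RDH10 at CT1.0 (5.22%), CYP26A1, CYP26B1 and STRA6 at CT2.0 (5.96%) and DHRS3 and STRA6 at CT3.0 (7.35%). At day 8 they were ALDH1A1, ALDH1A3 and RDH10 at CT0.4 (6.03% of all genes), CYP26A1 at CT0.8 (4.54%) and CT1.0 (4.59%), CYP26A1, CYP26B1 and STRA6 at CT2.0 (6.41%) and STRA6 at CT3.0 (16.2%).

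Between neighbouring doses, the step from CT2.0 to CT3.0 called 4 members at day 4 (CYP26A1, CYP26B1, DHRS3 and STRA6; 3.76% of all genes) and 3 at day 8 (these without DHRS3; 12.9%). From CT1.0 to CT2.0, 3 were called on each day, CYP26B1 and STRA6 on both, DHRS3 at day 4 and CYP26A1 at day 8 (1.9% and 1.76% of all genes). The DHRS3 call, a fall of 1.02 at day 4, was lost without either CT1.0 library or without CT2.0 replicate 2 (limma adjusted p = 0.125, 0.0917 and 0.199), and that of STRA6 without CT2.0 replicate 2 (0.99). At day 4 the step from CT0.4 to CT0.8 called CYP26A1 alone (1.18% of all genes). The steps from CT0.8 to CT1.0 (0.943% and 3.71% of all genes) and from CT3.0 to CT4.0 (0.0992% and 0.308%) called 0 members by limma. From CT0.8 to CT1.0 at day 4, STRA6 (-0.97) and RDH10 (-0.94) missed only the size needed for a call (limma adjusted p = 0.00689 and 0.0266). With a pseudocount of 0.1 both were called (-1.08 and -1.44).

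From day 4 to day 8, CYP26A1 was lower at CT0.4 (10.7% of all genes called), CT0.8 (5.57%), CT1.0 (5.66%) and CT2.0 (3.38%). The CT0.4 call (-1.15, limma adjusted p = 0.0115) was lost without day 4 CT0.4 replicate 2 (0.127) or day 8 CT0.4 replicate 1 (0.0556). ALDH1A1, ALDH1A3 and RDH10 were higher at day 8 CT0.4 than at day 4, by 3.21, 1.97 and 2.41 (limma adjusted p = 1.78e-11, 1.96e-05 and 5.38e-08). RDH10 was also higher at day 8 at CT1.0 (+1.12) and under IWP2 (+1.19; 5.52% of all genes called), and its CT1.0 call was lost under median-ratio scaling (0.96) or without day 8 CT1.0 replicate 2 (0.92). DHRS3 was lower at day 8 at CT3.0 (6.39%) and CT4.0 (5.76%), and CYP26B1 was higher in CT4.0RA (+3.09; 5.22%).

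The CT dose profile itself changed from day 4 to day 8 for 6 members, against 19.5% of all genes, in a test added after the data were seen. They were CYP26A1, ALDH1A1, ALDH1A3, RDH10, DHRS3 and STRA6. CYP26B1, with its peak at CT2.0 on both days, was not among them (limma F test, adjusted p = 0.669).

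IWP2 was compared with untreated cells on each day. The limma test called 0 of 8 members on either day, against 0.283% and 0.425% of all genes. At an unadjusted p under 0.05 there were 2 members at day 4, DHRS3 (-0.57) and STRA6 (+0.42), and 1 at day 8, RDH10. The latter had 7.003 and 6.10 TPM under IWP2 against 2.77 and 2.99 TPM untreated, and the groups did not overlap (+0.96 ± 0.24, limma adjusted p = 0.0617). Untreated cells at day 4 had 4 of 8 members lower than stem cells (CYP26A1, ALDH1A1, ALDH1A3 and DHRS3), where 16.8% of all genes were called and 9.24% were called lower. With a pseudocount of 0.1 this contrast called 7 members. Untreated day 8 cells differed from day 4 in 0 called members (limma), against 5.78% of all genes, and 3 members had an unadjusted p under 0.05. Among them, STRA6 (+0.65, limma adjusted p = 0.0251) missed only the size needed for a call.

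The cells at CT4.0, in which CYP26A1 was near 0 and STRA6 high, differed from the neural progenitor label in some of its markers. PAX6 had 1.78 and 1.20 TPM at day 4 CT4.0 and 1.29 and 1.78 TPM at day 8, and HES5 and SOX1 stayed under 0.41 TPM in those libraries. SOX2 (199.9 and 187.9 TPM at day 4) and NES (93.7 and 91.3 TPM) were present. TBXT, a factor of axial progenitors and early mesoderm, had 31.3 and 41.3 TPM at day 4 CT4.0 and 21.3 and 23.2 TPM at day 8. The 7 listed mesoderm genes, TBXT among them, summed to 36.1 and 47.9 TPM at day 4 CT4.0 and to 11.2 and 9.65 TPM in CT4.0RA. In CT4.0RA TBXT was 0.272 and 0.225 TPM and PAX6 168 and 167 TPM. The day 4 fall of the mesoderm sum was thus that of TBXT, and the other listed mesoderm genes together were higher with RA. The 5 neural progenitor markers summed to 296 and 281 TPM at day 4 CT4.0 and 585 and 553 TPM in CT4.0RA, and to 229 and 229 TPM and 757 and 782 TPM at day 8. The 5 spinal cord genes, HOX genes of caudal identity, summed to 591 and 738 TPM at day 4 CT4.0 and 115 and 196 TPM in CT4.0RA. All 5 had a mean of at least 1 TPM in CT4.0, and 2 had in CT4.0RA. The 5 retinal pigment epithelium and choroid plexus genes summed to 326 and 266 TPM at day 4 CT4.0 and 64.8 and 56.9 TPM in CT4.0RA, and to 235 and 250.4 TPM and 27.7 and 30.4 TPM at day 8. At day 4 only 1 gene of this list had a mean of at least 1 TPM in each group. The 5 neural crest genes summed to 44.5 and 50.3 TPM at day 4 CT4.0 and 12.1 and 14.1 TPM in CT4.0RA. Only 2 of these 5 had a mean of at least 1 TPM in each of the 2 conditions on each day. The 5 rostral forebrain genes summed to 0.370 and 0.601 TPM at day 4 CT4.0 and 33.9 and 29.04 TPM in CT4.0RA, where only 1 of the 5 had a mean of at least 1 TPM. The 5 hindbrain genes summed to 100.2 and 109.8 TPM and to 39.9 and 45.4 TPM in these groups, and the 5 surface ectoderm genes to 155 and 194 TPM and to 66.1 and 71.05 TPM. In both groups the hindbrain, surface ectoderm and pluripotency lists each had only 3 of their 5 genes at a mean of at least 1 TPM. The 5 pluripotency genes summed to 693 and 673 TPM in CT4.0 and to 438 and 452 TPM in CT4.0RA. The endoderm genes stayed under 1 TPM at both days. At day 4 these sums, apart from endoderm, differed between CT4.0 and CT4.0RA alongside CYP26A1, DHRS3 and STRA6. At day 8 the neural crest sums were close, with 16.9 and 18.05 TPM in CT4.0 and 16.7 and 15.1 TPM in CT4.0RA. The hindbrain sum was then higher with RA, at 64.7 and 58.99 TPM against 57.8 and 51.04 TPM in CT4.0. The mesoderm, spinal cord, rostral forebrain, surface ectoderm and pluripotency sums kept their day 4 direction at day 8. The part of these genes in the members' changes was not tested.

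The remaining genes of the pathway, 37 listed receptors, binding proteins and enzymes of which 30 were tested, held genes called for RA in both directions and a majority not called. RA on CT4.0 called 7 higher and 4 lower at day 4 and 8 higher and 2 lower at day 8, where 5.84% and 8.87% of all genes were called, with a list median of -0.17 and 0.14 beside -0.18 and 0 for all genes. RARB, the RAR gene known to be induced by RA, had 0.390 and 0.336 TPM at day 4 CT4.0 and 22.5 and 22.7 TPM with RA (+4.11 ± 0.21, limma adjusted p = 1.79e-12), and its effect at day 8 was +4.45 (3.29e-13). BCO1, which cleaves carotene to retinaldehyde, rose with RA from at most 0.0396 TPM to 13.8 and 11.7 TPM at day 4 (+3.75, limma adjusted p = 7.9e-13), and by 2.78 at day 8 (5.95e-11).

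**Figure D4:**
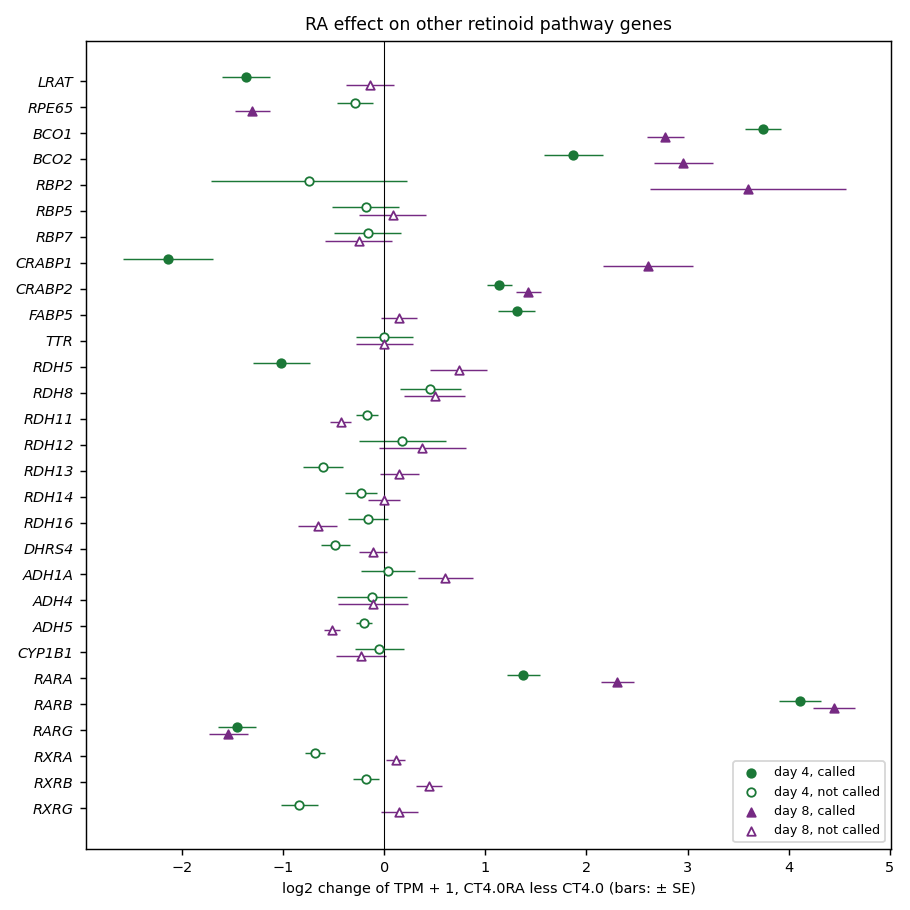
Log2 change of TPM + 1 for CT4.0RA less CT4.0 (horizontal axis) of 29 of the 30 tested other genes of the retinoid pathway, at day 4 (green circles) and day 8 (purple triangles); filled symbols were called, open ones were not, and error bars are SE. RARB has the highest plotted value on both days (+4.11 and +4.45), and CRABP1 lies at -2.14 on day 4 and +2.61 on day 8.

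CRABP1, which binds RA in the cytoplasm, changed with RA in opposite directions on the 2 days. It had 22.6 and 18.3 TPM at day 4 CT4.0 and 3.59 and 4.08 TPM with RA (-2.14 ± 0.45, limma adjusted p = 9.99e-04), but 28.8 and 31.7 TPM at day 8 CT4.0 and 183 and 196 TPM with RA (+2.61). The difference between the days was 4.75 ± 0.63 (limma adjusted p = 1.49e-05). Between untreated and CT4.0, CRABP1 fell by 3.19 at day 4 and by 4.29 at day 8 (limma adjusted p = 8.28e-06 and 6.33e-08). LRAT, which stores retinol as ester, was lower at day 4 CT4.0 than untreated (-2.61, limma adjusted p = 1.6e-08), and RARG was higher on both days (+2.18 and +2.42; 9.03e-09 and 8.58e-10). CT4.0 called 3 higher and 3 lower of the 30 on each day, where 8.3% and 15.8% of all genes were called, with a list median of -0.01 and -0.35 beside -0.06 and -0.27 for all genes. Among the uncalled genes, ADH5 had a high level, with 195.7 and 188.2 TPM at day 4 CT4.0 and 153.5 and 181 TPM with RA.

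Of 16 genes listed as known RA responders, all were tested. This list was written with earlier results of these data known, and RARB stands both in it and in the pathway list. RA called 8 higher and 2 lower at day 4 and 9 higher and 1 lower at day 8, where 5.84% and 8.87% of all genes were called, with medians of 1.19 and 1.23 beside -0.18 and 0 for all genes. MEIS2 rose by 4.01 and 5.32 (limma adjusted p = 1.34e-08 and 9.39e-11) and CDX1 by 3.96 and 5.47 (4.34e-10 and 1.27e-12) at days 4 and 8. CT4.0 without RA called 7 of these 16 higher and 3 lower at day 4, and 6 higher and 3 lower at day 8 (8.3% and 15.8% of all genes). HOXB4 rose by 5.99 and 7.04 and HOXB1 by 5.08 and 4.95 with CT4.0 (limma adjusted p = 8.8e-13, 4.72e-14, 3.01e-16 and 4.61e-16). At this dose CYP26A1 and RARB were below 1 TPM in every library.

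The genes whose group means were most like those of a member were found by Pearson correlation of log2(TPM + 1) over the 19 groups among protein-coding genes. RARB stood first for CYP26A1 (0.90), followed by QPRT (0.84) and SLC45A3 (0.83). RARB shared the CT window too, with day 4 means of 5.76, 12.8 and 4.24 TPM inside it, from CT0.8 to CT2.0, and of 0.584 and 0.184 TPM on either side, at CT0.4 and CT3.0. For CYP26B1 the closest were GBX1 (0.95), SCRT2 (0.88) and SORCS3 (0.81), and for DHRS3 they were MID1IP1 (0.93), S100A16 (0.90) and PLBD1 (0.86). STRA6 was closest to HOXC4 (0.96), HOXA3 (0.94) and the overlapping CCDC33 (0.94). ALDH1A1 was closest to TAC1 (0.96), DOCK8 (0.95) and TLX2 (0.95), and RDH10 to PCDHA12 (0.92), SCARF2 (0.90) and METRNL (0.89). The means of a group share their libraries, and these values describe likeness of level only.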

How the data were processed

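Poly(A) RNA of 38 libraries (19 groups of 2) was sequenced in pairs on one of 2 instruments, per the labels' protocols, which do not tie a library to an instrument. Salmon 0.8.2, CASAVA 1.7 and build hg38 are named, per the submitters' processing notes. The authors deposited 1 table of TPM values for 58219 genes, each library summing to the same total, so depth and counting error cannot be recovered and a rise of abundant RNAs lowers all other values. Whether strand was kept is not given in the sources used here.

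From the deposited TPM, log2(TPM + 1) was computed for the 28221 genes that reached 1 TPM in 2 or more libraries. limma 3.58.1 (R 4.3.3) fitted 19 group means (19 residual degrees of freedom, trended variance), and p-values were adjusted by Benjamini-Hochberg over all tested genes within each of 39 contrasts and 3 F tests. A call needed an adjusted p under 0.05 and a change (for F tests, a range of dose means) of at least 1, or a slope of at least 0.25 per µM. The F test comparing dose profiles between days was added after the data were seen. The fit was tested on simulated data.

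The members and gene lists were chosen with earlier results of these data known. All 9 members are named. Of the other retinoid genes and the RA responders, the rule names per comparison the 4 called genes with the largest change and the 2 uncalled genes of highest level, from which examples are given; some listed genes enter the counts and are not reported here by name. For likeness it names the 3 most correlated protein-coding genes of each member that reached a group mean of 5 TPM. Overlapping genes (CCDC33, RPL7, LIPC) and marker genes are given where a result touches them. Sums of marker lists of other cell types and regions are given beside the results at day 8 CT0.4 and for RA.

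Alternatives were a pseudocount of 0.1, no filter, median-ratio scaling, TPM without ribosomal protein and mitochondrial genes, the libraries of the days compared only, no variance trend, a replicate block, a slope over dose rank, and leaving out each library.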

Additional observations from a re-analysis of the deposited data

Results flagged for a closer look

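The effect of RA on CT4.0 differed between the days for 2 members, by the interaction term of the limma fit. For CYP26B1 the day 8 effect exceeded the day 4 effect by 3.00 (adjusted p = 6.54e-06). For DHRS3 it was larger by 2.04 (limma adjusted p = 4.78e-04).

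The CT dose profile differed between the days for 6 members, by a limma F test over the 6 dose contrasts that was added after the data were seen. The largest log2 difference between the days' dose effects was 3.47 for CYP26A1 (adjusted p = 1.32e-06), whose window of high expression was lower at day 8. It was 3.17 for ALDH1A1 (limma adjusted p = 1.73e-08), 1.81 for ALDH1A3 (0.00248) and 2.44 for RDH10 (7e-06), each with a peak at day 8 CT0.4 that day 4 lacked. It was 1.38 for DHRS3 (limma adjusted p = 8e-04) and 1.15 for STRA6 (0.00955), whose rises at high CT were smaller at day 8.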

How the results depend on the processing

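Of the counts of members called, 2 moved by more than 1.5 times under an alternative. Untreated day 4 against stem cells called 7 members with a pseudocount of 0.1 in place of 4 (the cause was not tested), and the CT slope at day 8 called 1 member over dose rank in place of 4, where a slope per dose step is held to the same threshold as one per µM. Leaving out each library in turn gave 4 to 5 members for the day 4 dose test (5 with all; 4 without day 4 CT1.0 replicate 2), 7 to 8 at day 8 (7), 5 to 7 for the dose profile between days (6; 5 without day 4 CT4.0 replicate 2), 4 to 5 for the day 8 slope (4), 4 to 6 for untreated day 4 against stem cells (4), 3 for RA at day 4, 4 for RA at day 8, 2 for CT4.0 on either day and 2 for the day difference of the RA effect. It gave 21 to 27 calls over all doses against untreated (22), 16 to 20 over dose steps (18) and 12 to 15 over day 8 against day 4 of the treated conditions (13). Among values of single members, 3543 kept their side of the threshold, 52 passed it newly and 17 lost it. Of the values called with or without the alternative, 0 changed direction, and direction was not compared for the others. Lost calls were RDH10 at CT1.0 against untreated at day 4 and at CT1.0 between the days, DHRS3 and STRA6 from CT1.0 to CT2.0 at day 4, CYP26A1 at CT0.4 between the days, ALDH1A2 under IWP2 between the days and, over dose rank, the slopes of CYP26A1 on both days and of ALDH1A1 and DHRS3 at day 8. TPM without depth limits what can be said of values under 1.

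Replicate numbers did not pair the libraries: over 171 pairs of groups, same-numbered libraries' deviations correlated between -0.0427 and 0.0372. With the replicate block the counts were 5 and 7 for the dose tests, 3 and 4 for RA and 2 and 2 for CT4.0, as without it.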
